A study of Homo sapiens with 2 samples.

Results

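The cells described here are the glycolytic, hypoxia-marked cells of human cerebral organoids, chosen by the summed transcripts of 9 genes of glucose uptake, glycolysis and the response to low oxygen. The 9 genes were PDK1, SLC2A1, SLC2A3, BNIP3, PGK1, ANKRD37, PFKFB3, PFKFB4 and EGLN3, and the score of a barcode was their summed count divided by its total count of transcripts. A barcode stands for 1 cell or 1 nucleus. Barcodes with more than 5000 transcripts (cells) or more than 2000 (nuclei) and at most 20% mitochondrially encoded transcripts entered, and members needed at least 4 of the 9 genes detected. The 300 highest scores of each library were the members. They made up 4.43% of the 6779 cells and 2.64% of the 11375 nuclei that passed these limits, and all other passing barcodes of the same library served as the reference. The rule takes a fixed number, so the number of members is not a measure of how common such cells were.

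The organoids were grown from H9, an established human embryonic stem cell line, with a commercial cerebral organoid kit, and measured by split-seq, a method that labels the RNA within fixed cells through repeated pooling and splitting over wells. The library of single cells pooled control organoids (CO) of days 45, 55 and 70, organoids dissociated to single cells at day 45 and reaggregated (DISS) of days 48, 55 and 70, and organoids freed of Matrigel at day 13 and held in 3% agarose, collected at day 55 (CONS). The library of nuclei was a control experiment on day 45 organoids, either whole or taken apart to a single-cell suspension, although its treatment label lists Control, Dissociated and Embed. The sources name no genetic change, and both libraries came from this 1 cell line. Every barcode of a library carried the same sample name, so that the condition and the organoid of a member, and in cells its day, are not known here. Each library was therefore 1 sample, no p-value is given, and the intervals below cover counting error only.

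Cells short of oxygen stabilize the HIF factors, which bind short DNA motifs near their target genes together with their partner ARNT. Well-known targets encode the glucose transporters SLC2A1 and SLC2A3, most enzymes of glycolysis, and pyruvate dehydrogenase kinases, which inhibit pyruvate dehydrogenase. Others encode the growth factor VEGFA that attracts vessels, and BNIP3, which marks mitochondria for removal. The prolyl hydroxylases EGLN1 and EGLN3 mark the HIF factors for degradation and are targets themselves. Organoids have no circulation, and their inner cells are fed by diffusion alone. Radial glia (RG), the stem cells of the cortex, are also known to rely on glycolysis more than neurons do.

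The core of the motif bound by HIF factors, ACGTG or GCGTG, was searched on both strands in the 250 bases before the start of each gene (RefSeq, GRCh38.p14). Overlapping matches were counted apart, so that CACGTG counts once on each strand. Of 27305 promoters, 43.1% held at least 1 of the motifs, 18.7% holding ACGTG and 31.9% GCGTG. Among the 9 genes of the rule 8 were matched and 5 held a motif (62.5%), while none was found in these windows of PDK1, SLC2A1 and EGLN3. Of 31 matched genes of a list of other hypoxia response genes 27 held one (87.1%), and of 21 matched genes of glycolysis 11 did (52.4%). Stretches of 4 promoters are shown because the genes are described below and their matches lie close together. STC2 and FAM162A, with 3 and 4 matches, differed more than PGK1 in both libraries and are not shown. Capitals mark the motif on either strand, CACGT and CACGC being the motifs read on the other strand, and each stretch runs 5′ to 3′ on the strand of its gene.
BNIP3, chr10:131981983-131982067, minus strand, 6 matches, the nearest 104 bases before the start: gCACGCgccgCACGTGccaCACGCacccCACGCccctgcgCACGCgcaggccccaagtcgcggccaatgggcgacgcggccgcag
PGK1, chrX:78104025-78104109, plus strand, 3 matches, the nearest 183 bases before the start: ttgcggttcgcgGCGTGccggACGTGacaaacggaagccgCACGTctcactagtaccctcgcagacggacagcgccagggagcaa
ANKRD37, chr4:185396658-185396742, plus strand, 3 matches, the nearest 143 bases before the start: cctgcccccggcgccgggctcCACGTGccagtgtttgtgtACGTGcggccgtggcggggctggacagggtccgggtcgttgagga
HK2, chr2:74834039-74834123, plus strand, 2 of its 3 matches, the nearest 48 bases before the start: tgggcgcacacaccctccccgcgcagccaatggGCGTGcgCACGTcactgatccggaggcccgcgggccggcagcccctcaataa
The stretches of PGK1 and ANKRD37 lie within the annotated spans of these genes, and overlap with exons was not examined. A match is a run of letters and was not tested for binding, which these data do not measure.

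The library of cells held 254967545 transcripts in 1303455 barcodes and that of nuclei 82339738 in 197446, most barcodes being far below the depth limits. Members were shallower than the reference, with a median of 8338 transcripts against 11024 in cells and 3702 against 4687 in nuclei. Added up, members held 3210923 transcripts in cells and 1383260 in nuclei, and the levels below are such sums scaled to 1e+06 transcripts (CPM). Scrublet marked 0 barcodes as doublets in either library and so gave no usable call, and the median doublet score was 0.0286 in member cells against 0.0418 in the reference and 0.0207 in member nuclei against 0.0197. No combination of well barcodes was shared between member cells and member nuclei (0, against 96 among all passing barcodes), while 5 combinations occurred in more than 1 sub-library among member cells.

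The score had no gap at the limit between members and reference. In cells the highest score was 61.9 transcripts of the 9 genes per 10000, the median of members 27.4 and that of the reference 5.04. The last cell inside stood at 22.28 and the first outside at 22.27, with 70 members and 68 other cells within 10% of the limit. In nuclei the highest score was 116.6, the median of members 35.1 and that of the reference 3.47, and the scores on either side of the limit were 25.59 and 25.53, with 64 members and 75 others within 10% of it. At least 4 of the 9 genes were detected in 53.2% of passing cells but in 16.9% of passing nuclei, which are shallower. The requirement kept out 5 cells and 36 nuclei with scores above the limit.

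**Figure D1:**
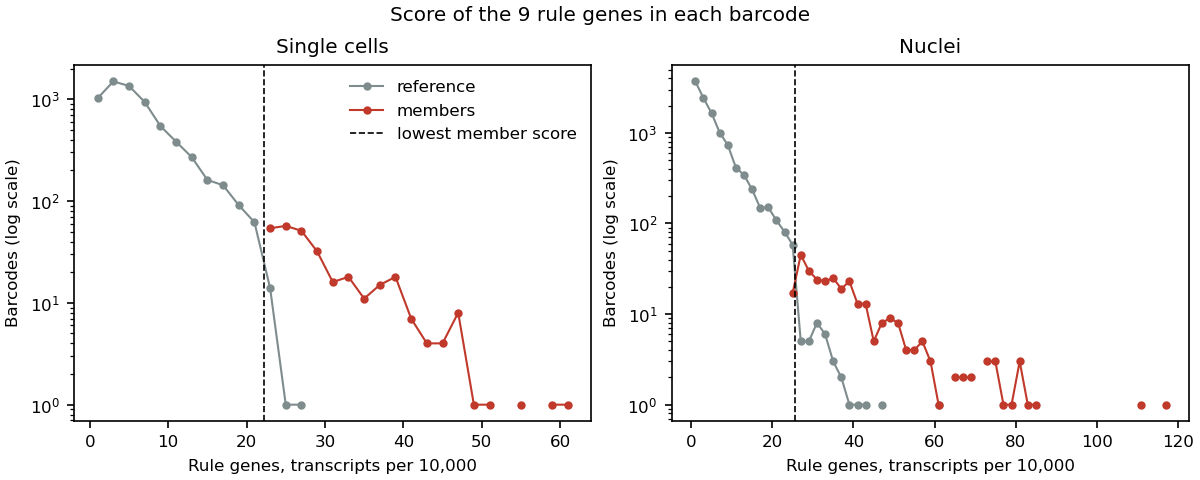
Number of barcodes (log scale) by score, in transcripts of the 9 rule genes per 10000, for members (red) and reference (grey) in cells and nuclei, with a dashed line at the lowest member score. Members lie at or above 22.28 in cells and 25.59 in nuclei, where 5 other cells and 36 other nuclei with fewer than 4 of the genes lie too.

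All 9 genes detected together were rare even among members. Of 300 member cells 17 had 4 of the genes, 59 had 5, 88 had 6, 80 had 7, 47 had 8 and 9 had all 9. Of 300 member nuclei 62 had 4, 90 had 5, 83 had 6, 38 had 7, 24 had 8 and 3 had all 9. PDK1, PFKFB3 and PGK1 supplied 24.1%, 20.2% and 17.7% of the counted score transcripts of member cells. In member nuclei SLC2A1, PGK1 and PDK1 came first, with 23.4%, 18.6% and 14.1%.

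The values of the 9 genes follow from the way members were chosen and are given as a description. Among the glucose transporters, SLC2A1 stood at 174 CPM in member cells (95% Poisson interval 159.7 to 188.8) and 41.8 in the reference, and at 871 (822.6 to 921.7) against 57.9 in nuclei. The log2 fold was thus 2.06 in cells but 3.91 in nuclei. SLC2A3 stood at 201.5 CPM against 44.9 in cells, 4.48-fold, and at 299 against 38.9 in nuclei, 7.67-fold. Across the 8 sub-libraries of cells, which are technical portions of 1 pool, SLC2A1 ranged from 143 through a median of 177 to 207 CPM in members and from 37.1 to 47.0 in the reference. The ranges did not overlap.

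The enzymes and regulators of glycolysis followed. PDK1, which phosphorylates and so inhibits pyruvate dehydrogenase (chromosome 2, 172555373 to 172608669, plus strand), had 704 CPM in member cells against 100 and 525 against 73.7 in nuclei, 7.02-fold and 7.12-fold. PGK1, the phosphoglycerate kinase of glycolysis, had 517 against 116 CPM in cells and 690 against 94.9 in nuclei. Its annotated span overlaps ATP7A on the same strand, whose reads may be counted with it. PFKFB3 and PFKFB4 set the level of fructose 2,6-bisphosphate, the activator of phosphofructokinase. PFKFB3 differed 4.58-fold in cells and 5.59-fold in nuclei, and PFKFB4 5.87-fold and 9.02-fold.

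Of the other 3 genes, BNIP3, a receptor that marks mitochondria for removal, had 316 CPM in member cells against 60.3 and 284 against 43.6 in nuclei. ANKRD37, a small ankyrin repeat protein, had the largest ratio in nuclei, 73.7 against 3.74 CPM or 19.7-fold, but was sparse. It was detected in 14.0% of member cells and 15.3% of member nuclei. EGLN3 differed least, with 140 against 82.7 CPM in cells (1.69-fold) and 130 against 51.1 in nuclei (2.55-fold). It was detected in 58.7% of member cells and in 58.0% of the deeper reference cells. Free RNA, estimated from barcodes of 10 to 100 transcripts, held these genes at about the level of the reference, for example PDK1 at 127 CPM in cells and 83.4 in nuclei.

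**Figure D2:**
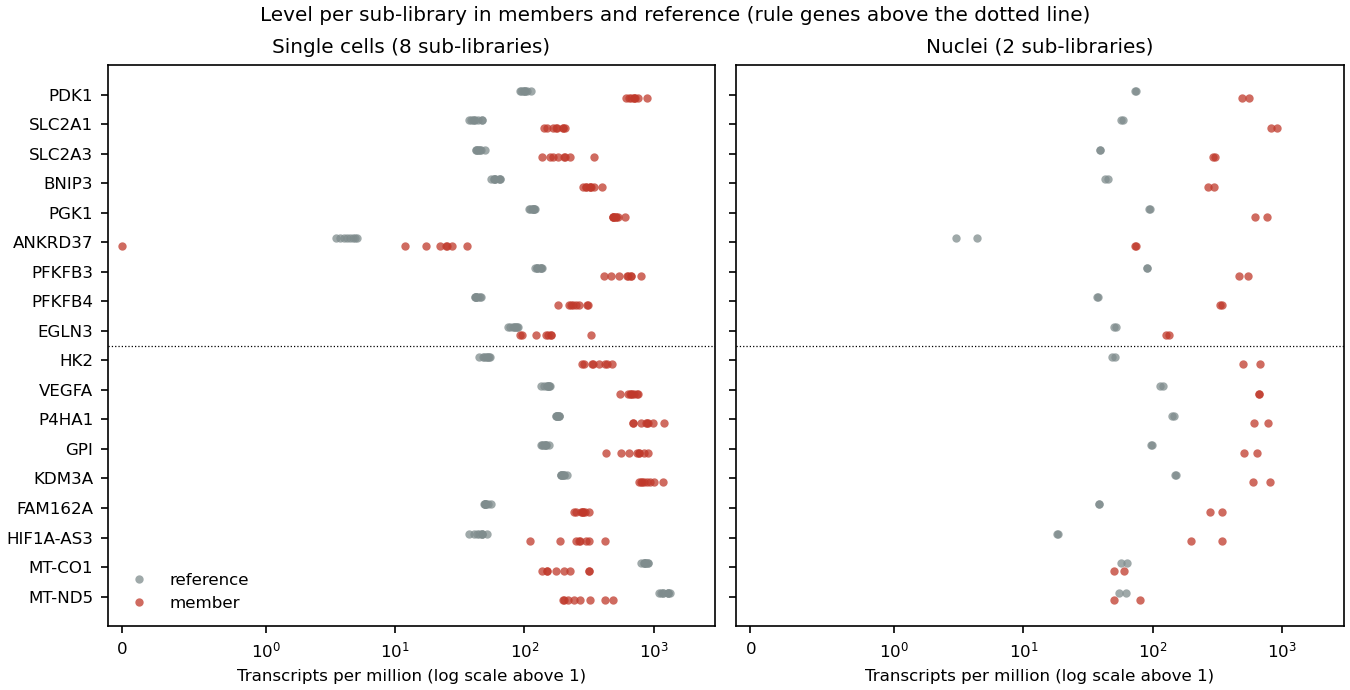
Level of the 9 rule genes (above the dotted line) and of 9 genes outside the rule in each sub-library, in CPM on an axis that is logarithmic above 1, for members (red) and reference (grey); 8 points per group in cells and 2 in nuclei. For HK2, members lie between 281 and 479 in cells and the reference between 44.7 and 54.0.

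Over all genes, the rule's 9 included, 25082 were present in at least 1% of passing cells with at least 20 counts, of which 1113 were at least 2-fold higher in members (4.44%) and 3174 at least 2-fold lower (12.7%). In nuclei 1102 of 16196 genes were at least 2-fold higher (6.8%) and 1849 at least 2-fold lower (11.4%). The members were picked in the same barcodes, so nothing is read from these shares beyond the scale they set for the gene lists that follow. The median log2 fold of all genes tested was -0.05 in cells and -0.03 in nuclei. Where reference nuclei were weighted to the clusters of the members, 453 genes were at least 2-fold higher.

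The enzymes of glycolysis outside the rule were for the most part higher in members. Of 22 genes of glycolysis and lactate handling tested in cells 12 were at least 2-fold higher and 1 lower, with a median log2 fold of 1.22, and of 20 tested in nuclei 15 were higher and 0 lower, with a median of 1.77. Where reference barcodes were weighted to the wells of the members, the medians were 1.18 and 1.64. HK2, the hexokinase that traps glucose in the cell and is bound to mitochondria, differed most. It had 354 CPM in member cells (333.5 to 375.0) against 50.4 (49.1 to 51.6), and 587 (547.3 to 628.8) against 49.9 (48.2 to 51.6) in nuclei, 7.02-fold and 11.8-fold. HK2 was detected in 84.7% of member cells and 35.2% of reference cells, and in 71.0% and 18.1% with every barcode thinned to 5000 transcripts.

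The next steps of the pathway differed to unequal degrees. GPI, the glucose phosphate isomerase, had 704 CPM against 144 in cells and 573 against 97.4 in nuclei. PFKP, the platelet form of phosphofructokinase, had 295 against 78.3 and 317 against 56.5, while the other forms PFKL and PFKM had log2 folds of 0.56 and 0.40 in cells and 0.54 and 0.86 in nuclei. Among the enzymes of the lower pathway, ALDOA, PGAM1, ENO1, ENO2 and PKM were all at least 2-fold higher in both libraries, ENO1 with 260 against 90.9 CPM in cells and 299 against 61.3 in nuclei.

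GAPDH, by contrast, stood at 74.7 CPM in member cells (65.6 to 84.8) and 76.7 in the reference, a log2 fold of -0.04, but at 44.1 against 14.8 in nuclei, a log2 fold of 1.58. TPI1, the triose phosphate isomerase, had log2 folds of 0.38 and 0.94. LDHA, which turns pyruvate into lactate, had 23.4 against 11.9 CPM in cells and 40.5 against 8.75 in nuclei, whereas LDHB, the form that favours the reverse reaction, had log2 folds of -0.21 and 0.37. The lactate exporter SLC16A3 was 3.04-fold higher in cells and 3.10-fold in nuclei. PDK3, a further pyruvate dehydrogenase kinase, had log2 folds of 1.72 and 1.91, and PDK4 had a single count in member cells, 0.311 CPM (0.00788 to 1.74) against 2.19 in the reference.

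The list of 40 hypoxia response genes outside the rule went the same way. Of 39 tested in cells 32 were at least 2-fold higher and 0 lower, with a median log2 fold of 1.56 (1.37 with the reference weighted to the members' wells), and of 35 tested in nuclei 29 were higher and 0 lower, with a median of 2.01 (1.86). HK2 and GBE1 belong to this list and to that of glycolysis. The list's summed level was 7546 CPM in member cells against 2527 in the reference and 8005 against 2172 in nuclei. RNASE4 was not tested in either library, and ADM, CA9, LOX and IGFBP3 were not tested in nuclei because too few nuclei held them.

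Secreted factors formed 1 group of these genes. VEGFA, the growth factor of vessels, had 678 CPM against 150 in cells and 664 against 118 in nuclei, and was detected in 93.7% of member cells. In the 8 sub-libraries it ran from 548 to 751 CPM in members and from 135 to 157 in the reference. STC2, a secreted glycoprotein, had 85.0 against 16.9 CPM in cells and 103 against 8.96 in nuclei. Its relative STC1 had log2 folds of 1.48 and 2.36. IGFBP3, which binds insulin-like growth factors, had 9.03 against 0.941 CPM in cells from 29 counts in 2.00% of members, so that few cells carried it.

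Enzymes of collagen and chromatin that need oxygen for their reactions were a further group. P4HA1, a prolyl hydroxylase of collagen, had 854 CPM against 180 in cells and 687 against 143 in nuclei, 4.74-fold and 4.79-fold. PLOD2, a lysyl hydroxylase of collagen, had 151 against 36.0 and 162 against 30.5. KDM3A, a histone demethylase, had 889 against 198 CPM in cells and 699 against 151 in nuclei. For P4HA1 and KDM3A members exceeded the reference in all 17 wells of cells with at least 5 members, and the same held in all 12 wells of nuclei.

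Genes of mitochondria, stress and lipid droplets were next. FAM162A, a mitochondrial protein, had 276 against 50.5 CPM in cells and 310 against 38.4 in nuclei. BNIP3L, the relative of BNIP3, had log2 folds of 1.51 and 1.69, and DDIT4, an inhibitor of mTORC1, 1.78 and 2.68. HILPDA, which coats lipid droplets, had log2 folds of 1.89 and 3.36. INSIG2, a regulator of sterol synthesis, had 150 against 37.4 CPM in cells and 347 against 48.8 in nuclei.

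Several of these differences were larger in nuclei. NDRG1, a stress protein, led the nuclei with 230 CPM (205.3 to 256.6) against 13.7, 16.8-fold, while in cells it had 78.5 against 20.8, 3.77-fold. GBE1, the glycogen branching enzyme, had 371 against 36.6 in nuclei, a log2 fold of 3.34, and 97.5 against 39.0 in cells, a log2 fold of 1.32. BHLHE40, a transcription repressor, had log2 folds of 3.37 in nuclei and 1.94 in cells. The libraries differed in material, depth and days, and the difference between them was not tested.

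CA9, the membrane carbonic anhydrase, had 31.1 against 5.90 CPM in cells, which came to 2.70-fold and not 5.28-fold with the reference weighted to the members' wells. Some members of the list did not differ in the same way. CA12, related to CA9, had log2 folds of -0.69 and 0.15. NDUFA4L2, a mitochondrial protein, had log2 folds of 0.36 in cells and -0.65 in nuclei, the latter from 5 counts.

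By the medians of the lists, HIF factors and their regulators differed less than the hypoxia response genes. Of 10 factors and regulators tested 2 were at least 2-fold higher and 1 lower in cells, and 4 higher and 0 lower in nuclei, with medians of 0.40 and 0.38. HIF1A had 209 CPM in member cells (193.2 to 225.1) against 125 and 244 (218.3 to 271.1) against 106 in nuclei, log2 folds of 0.74 and 1.20. Its product is known to be controlled mainly by degradation, which these data do not measure. HIF1A-AS3, annotated on the opposite strand of HIF1A, had 256 against 44.9 CPM in cells and 272 against 18.4 in nuclei, 5.71-fold and 14.8-fold. The strand used in counting is not given in the sources used here, so that reads of the pair may not be fully told apart.

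EPAS1, which encodes the second HIF factor, had opposite signs, with 11.5 against 25.8 CPM in cells and 67.2 against 23.8 in nuclei. Within wells members were higher in 5 of 17 wells of cells and in 7 of 12 wells of nuclei. The median log2 folds were -0.39 and 0.52. They leave out wells with a count of 0, which were 5 in cells and 2 in nuclei. EGLN1, the main oxygen sensor, had 225 against 93.7 CPM in cells and 225 against 80.2 in nuclei. The partner genes ARNT and ARNT2 had log2 folds of 0.51 and -0.81 in cells and of 0.36 and -0.61 in nuclei. VHL, HIF1AN, HIF3A and EGLN2 lay between -0.41 and 0.54 in both libraries.

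Genes that the study had examined as signs of stress showed no common direction in members. SOD1, an enzyme against superoxide, had log2 folds of -0.08 in cells and 0.37 in nuclei, XBP1, a factor of endoplasmic reticulum stress, 0.48 and 1.21, and ATG5, an autophagy gene, 0.36 and 0.55. BCL2, which protects from apoptosis, had 104 against 231 CPM in member cells and 215 against 304 in nuclei. BAX, its opponent, had log2 folds of -0.51 and 0.03. CASP9 had 0.69 and 0.56, and CASP8 had 12 counts in member cells and 2 in nuclei, too few for a comparison.

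Wider stress lists differed more in nuclei than in cells. Of 17 genes of the integrated and endoplasmic reticulum stress responses tested in cells 1 was at least 2-fold higher (VLDLR), with a median log2 fold of 0.08, while 7 of 16 were in nuclei, with a median of 0.84. Among the latter PPP1R15A, which ends the stress response, had 51.3 against 11.9 CPM. Of 12 immediate early and heat shock genes 3 were at least 2-fold higher and 1 lower in cells, and 6 higher and 2 lower in nuclei. The heat shock gene DNAJB1 had 75.1 against 31.5 CPM in cells and 152 against 26.2 in nuclei, a log2 fold of 2.53 that came to 1.91 with the reference weighted to the members' wells. EGR1, an immediate early gene, was 3.28-fold lower in member cells and 2.45-fold lower in member nuclei. HSPA1B had 91.8 against 13.4 CPM in nuclei, but its near-identical copy HSPA1A makes the split of its reads uncertain. Members were higher in 6 of 12 wells, the other 6 having a count of 0, and the weighted difference was 3.83-fold in place of 6.83-fold. Of p53 targets and apoptosis genes 0 of 8 were 2-fold higher or lower in cells, and 2 of 7 were higher in nuclei.

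The mitochondrially encoded genes were lower in member cells without exception. All 13 were at least 2-fold lower, with a median log2 fold of -1.99 (-1.65 with the reference weighted to the members' wells). Within clusters of similar cells, given below, the difference was smaller. MT-CO1, a subunit of cytochrome c oxidase, had 211 CPM in members against 862, and MT-ND5, a subunit of complex I, 297 against 1234. For MT-ND5 members were below the reference in all 17 wells with at least 5 members, and the same held for MT-CO1. MT-ATP6 had 28.7 against 182 CPM, 6.35-fold lower. The share of all transcripts of the mitochondrial genome, its ribosomal RNAs included, had a median of 0.813% in member cells and 2.35% in the reference. In nuclei, which hold little such RNA, the shares were 0.0890% and 0.0866%, and 3 of 12 genes were at least 2-fold lower. Wells differed in this share too, with medians between 0.570% and 4.24% in the wells that held members and between 0.457% and 7.25% in those that did not.

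**Figure D3:**
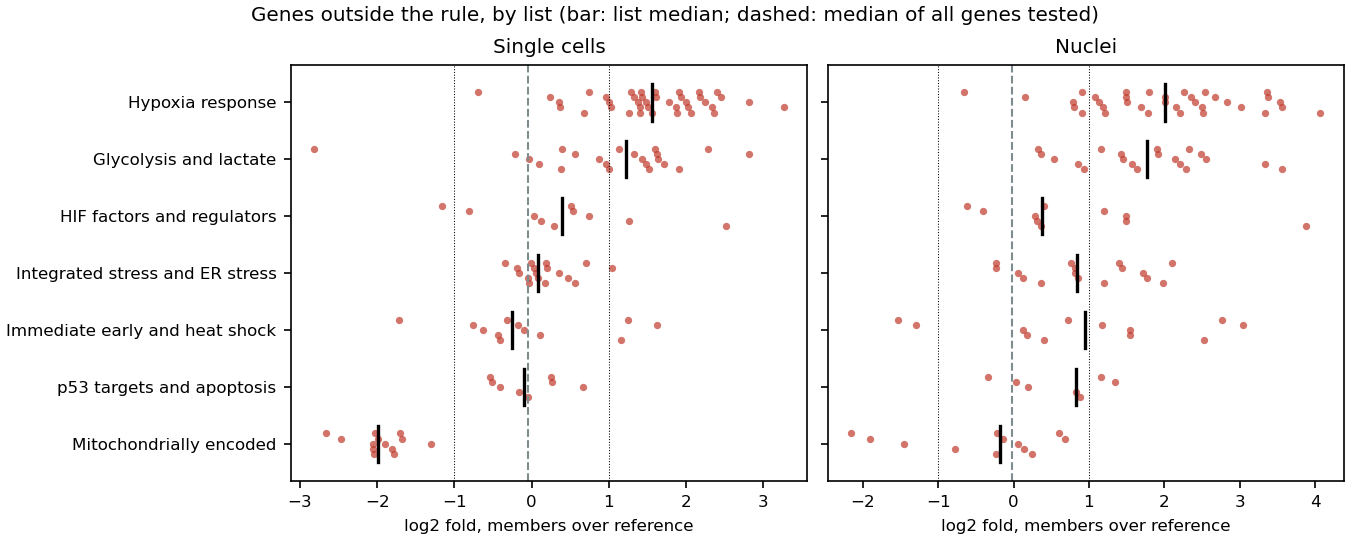
Log2 fold of members over reference for each tested gene outside the rule, by gene list, with a black bar at the list median, a dashed grey line at the median of all genes tested and dotted lines at 2-fold. Hypoxia response and glycolysis genes lie mostly to the right in both libraries, with medians of 1.56 and 1.22 in cells and 2.01 and 1.77 in nuclei, and mitochondrially encoded genes lie to the left in cells.

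Among genes outside any of these lists, ADARB2, a brain relative of the RNA-editing enzymes without known editing activity, had 1095 CPM in member cells (1059 to 1132) against 254. In the sub-libraries it ran from 774 to 1668 CPM in members while the reference lay below in every one of them, and weighting the reference to the members' wells left a 2.96-fold difference. The long noncoding RNAs LINC02649 and LINC02656, which overlap on the same strand, differed 4.10-fold and 4.43-fold in cells. With the reference weighted to the members' wells the differences were 3.09-fold and 3.25-fold. SAP30-DT, a divergent transcript overlapping SAP30 on the opposite strand, had 50.1 against 9.08 CPM. In nuclei the leading 15 genes also held ADAMTS20, a secreted protease (84.6 against 9.72 CPM), MYOF (165 against 19.6), MEST (200 against 25.3), COPG2IT1, which lies opposite COPG2 (439 against 59.9), and SERPINH1, the chaperone of collagen (54.2 against 7.57). With the reference weighted to the members' wells, MEST came to 5.23-fold in place of 7.89-fold and COPG2IT1 to 4.49-fold in place of 7.32-fold.

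The lowest genes differed between the libraries. In cells HTR2C, a serotonin receptor that marks the choroid plexus, had 191 CPM in members against 1539, 8.06-fold lower. SULF1, CFAP46, THBS3-AS1, OTX2-AS1 and LMX1A were between 4.96-fold and 6.02-fold lower. In nuclei the lowest were the unnamed gene ENSG00000225689, 8.66-fold lower, and ARPP21, SLC24A2, LINC01965, THSD7A, SPC25, SYNDIG1 and KCNH7, between 4.31-fold and 7.70-fold lower. With the reference weighted to the members' wells, the log2 fold of LINC01965 went from -2.81 to -1.91 and that of ENSG00000225689 from -3.12 to -2.47. ARPP21, which is expressed in maturing neurons, had 28.9 against 223 CPM, and KCNH7, a potassium channel, 257 against 1110.

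The lists of the 2 libraries overlapped in part. Of 16187 genes tested in both, leaving out the rule's genes, 381 were at least 2-fold higher in cells and 1093 in nuclei, and 183 were higher in both, which is 48.0% of the cell list and 16.7% of the nuclear list. Of 1196 lower in cells and 1849 lower in nuclei, 327 were lower in both (27.3% and 17.7%). A further 122 genes were lower in cells and higher in nuclei, which is 10.2% of the list lower in cells and 11.2% of that higher in nuclei, and 11 the reverse. Of all genes tested in both, 2.35% were higher and 7.39% lower in cells, and 6.75% higher and 11.4% lower in nuclei. The same genes chose the members of both libraries, so nothing is read from the overlap. Led by the smaller of their log2 folds, the genes higher in both were HK2 at 2.81, HIF1A-AS3 at 2.51, SAP30-DT at 2.47, FAM162A at 2.45 and STC2 at 2.33, and they included FGF11, a growth factor homologue, at 2.01, KCTD16, a subunit of GABA-B receptors, at 1.86, IGFBP2 at 1.87 and the stress cytokine GDF15 at 1.83. Where the reference was weighted to the members' clusters, 65 genes were higher in both.

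The members were then placed among the cell types of the organoids. Clusters were built without the rule's genes and without the hypoxia and glycolysis lists, and named from fixed markers where at least 3 markers of a type reached 1.5 times the level of all other barcodes and were present in 25% of the cluster. Among 21 clusters of cells, 2 held most members. Cluster 5, which met no naming rule and was led by ENSG00000287001, LINC02680 and MIR7-3HG, held 110 of the 300 members (36.7%, 31.2% to 42.4%), and 25.8% of its 426 cells were members. Of these 110 members 47 came from 1 first-round well. Cluster 10, excitatory neuron-like and led by CA9 and EPHA10, held 81 members, 24.1% of its 336 cells. The RG-like cluster 0 held 46 of 915 cells (5.03%, 3.70% to 6.65%). The 308 cells of the choroid plexus-like cluster 12 held 0 members, as did clusters 8, 14 and 18 of dividing cells.

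By class, 29.3% of member cells (24.2% to 34.8%) were excitatory neuron-like and 15.3% (11.4% to 19.9%) RG-like. These 2 classes are not compared with the reference. Neither cluster 10 nor the RG-like cluster 0 had a marker of its type among its leading genes. Of the 88 excitatory neuron-like members 81 lay in cluster 10. Clusters 3, 9 and 11 of that class held 0.43%, 0.89% and 0.60% members, below the 4.43% over all passing cells. Intermediate progenitor-like clusters held 8.33% of member cells. They are not compared with the reference, because cluster 6, with 15 of their 25 members, was led by ENSG00000278254, UPK2 and LMO2, with no marker of that type among its leading genes. Of the 6 clusters of dividing cells 3 held members, 13 in all, and they are not compared as a class because the leading genes of cluster 18 included markers of intermediate progenitors. In clusters without a name were 41.0% of members and 12.8% of the reference. These shares depended on the processing. Over the alternatives tried, which changed the choice of barcodes and members or the clustering, the excitatory neuron-like share of member cells ran from 9.67% to 37.3% and the RG-like share from 3.67% to 22.7%.

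In nuclei the members were spread over more clusters. The choroid plexus-like cluster 4, led by RSPO2, PRTG and LMX1A, among which RSPO2 and LMX1A also mark the cortical hem, held 71 members, 9.71% of its 731 nuclei. Cluster 10, which met the rule for excitatory neurons with 3 markers but was led by HIF1A-AS3, LINC02649 and the heat shock genes HSPH1 and HSP90AA1, held 69, 12.4% of 558. The small RG-like cluster 16, led by TNC, RGS6 and LIFR, had the highest share of any cluster of nuclei, 29 of 140 or 20.7% (14.3% to 28.4%), and 13 of these 29 came from well A3. The RG-like cluster 0, the largest, held 22 of 1685 (1.31%). Also named RG-like were cluster 11, led by EGR1 and heat shock genes, with 27 members, and cluster 15, led by PAX3, WNT3, ZIC4 and ZIC1 with no RG marker among its leading genes, with 14. RG-like clusters together held 30.7% of member nuclei (25.5% to 36.2%). Excitatory neuron-like clusters held 25.3% of member nuclei (20.5% to 30.7%), with 69 of these 76 in cluster 10. These classes and the choroid plexus-like one are not compared with the reference, because the leading genes of at least 1 cluster of each went against its name. Over the alternatives the RG-like share ran from 13.0% to 38.0% and the excitatory neuron-like share from 2.67% to 28.7%.

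**Figure D4:**
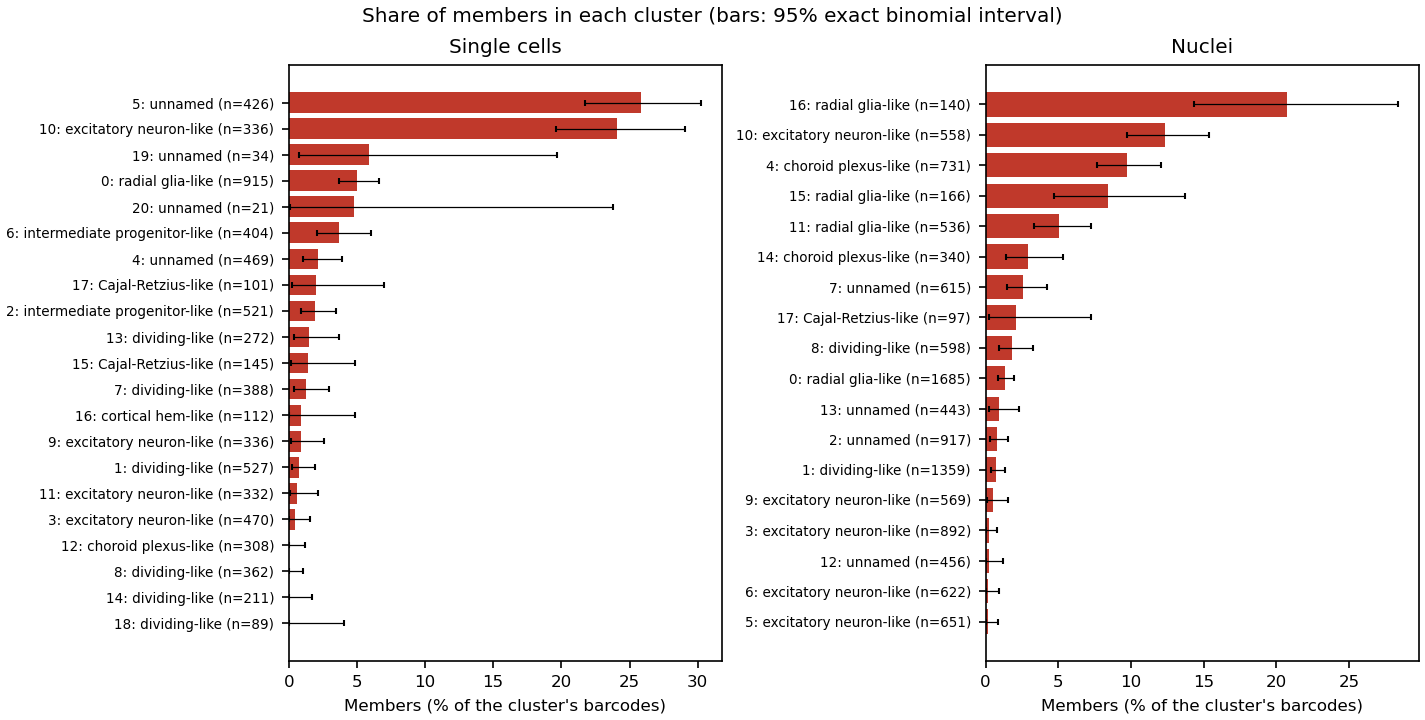
Members as a percentage of each cluster's barcodes, with 95% exact binomial intervals, for the 21 clusters of cells and 18 of nuclei; labels give the cluster number, its name and its number of barcodes. Clusters 5 and 10 stand apart in cells, at 25.8% and 24.1%, and cluster 16 leads in nuclei, at 20.7%.

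Marker lists were also read without clusters. The 12 RG markers summed to a median of 9.25 transcripts per 10000 in member cells and 21.6 in the reference, and to 10.5 and 22.9 in nuclei, and 6 of the 12 were at least 2-fold lower in cells. SOX2, a factor of neural stem cells, had 79.7 against 165 CPM in cells but 68.7 against 70.6 in nuclei. The 10 excitatory neuron markers had medians of 7.90 against 5.76 per 10000 in cells and 2.25 against 3.77 in nuclei, where 8 of 10 were at least 2-fold lower. In cells 5 of the 10 were higher and 5 lower, 0 at least 2-fold higher and 1 at least 2-fold lower. Their median log2 fold in cells was -0.07, and -0.25 with the reference weighted to the members' wells. Of the 8 G2/M markers all were at least 2-fold lower in member cells, MKI67 with 51.1 against 218 CPM. In nuclei their log2 folds lay between -1.19 and -0.21, MKI67 having 97.6 against 156 CPM. Of the 7 choroid plexus markers all were lower in member cells by at least 2-fold, while 4 of 6 tested were at least 2-fold higher in nuclei, among them the water channel AQP1 (52.1 against 6.46 CPM) and TTR, the thyroxine carrier (151 against 61.4).

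Markers of other cells that an organoid could hold were summed as well. Over each list, mesenchymal genes had 15.9 CPM in member cells against 33.0 and 52.1 against 29.1 in nuclei, endothelial genes 14.6 against 24.0 and 15.2 against 8.0, and microglial genes 4.7 against 7.1 and 4.3 against 4.3. LUM was at 0 counts in members of both libraries, CDH5 in member nuclei and AIF1 in both. Astrocyte genes summed to 4.4 against 7.4 CPM in cells and 5.1 against 6.4 in nuclei, with AQP4 and S100B at 0 in both. Oligodendrocyte lineage genes summed to 14.9 against 23.8 and 30.4 against 18.2, with OLIG1 and OLIG2 at 0 in both. Inhibitory neuron genes summed to 102 CPM in member nuclei against 23.3, of which GAD1, the enzyme that makes GABA, had 94.0 against 17.0, while DLX1, DLX6 and SLC32A1 were at 0. In cells that sum was 21.8 against 14.7. Of the 8 S phase markers 4 were at least 2-fold lower in member cells and 5 in member nuclei, and of the intermediate progenitor markers 3 of 6 and 3 of 5. Cortical hem genes summed to 69.1 CPM in member cells against 232 and to 621 against 286 in member nuclei. Outer radial glia genes summed to 226 against 229 in cells and 320 against 253 in nuclei, where LIFR, a cytokine receptor, had 199 against 80.1. The part of these markers in the other differences was not tested.

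Within a class the difference in hypoxia response genes was present too. Among RG-like cells 32 of 38 genes of the list were at least 2-fold higher in the 46 members than in the other RG-like cells, with a median log2 fold of 1.85, beside 9% of all genes with at least 20 counts there. Among excitatory neuron-like cells 29 of 39 were, with a median of 1.45, beside 8.07% of all genes. But 81 of these 88 members lay in cluster 10, and within that cluster 13 of 37 genes were at least 2-fold higher, with a median of 0.85, beside 2.45% of all genes. Within cluster 5 the count was 14 of 35, with a median of 0.93, beside 1.89% of all genes. The other cells of clusters 10 and 5 were themselves high, with HK2 at 122 and 112 CPM against 50.4 in the whole reference. Over all their cells the median scores of these clusters were 13.9 and 13.3 per 10000, against 5.04 in the reference. In nuclei cluster 0 had 21 of 31 (median 1.33), beside 13.4% of all genes, cluster 11 had 20 of 28 (1.59), beside 9.92%, and cluster 16 had 11 of 23 (0.97), beside 8.57%. Cluster 4 of nuclei had 27 of 34 (1.47), beside 7.09%, and cluster 10 had 22 of 33 (1.21), beside 4.26%. Clusters 16 and 10 of nuclei had median scores of 13.3 and 10.3 per 10000 over all their nuclei, against 3.47 in the reference. The 13 mitochondrially encoded genes had median log2 folds of -1.29 in members within cluster 0 of cells, -0.99 within cluster 5 and -1.04 within cluster 10. Clusters 5 and 10 had median mitochondrial shares of 1.00% and 0.764% over all their cells. The members within a class were chosen by the same score, so these values describe how wide the difference was and test nothing.

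Members of different classes shared these genes at unequal levels. SLC2A1 had 247 CPM in RG-like member cells and 76.9 in excitatory neuron-like ones, and in nuclei 598 in members of the RG-like cluster 0, 340 in those of cluster 10 and 1377 in those of cluster 4. PDK1 had the reverse order, 580 CPM in RG-like and 726 in excitatory neuron-like member cells. In nuclei PDK1 had 473, 904 and 412 CPM, with the clusters in the same order as before. Both genes are part of the summed score by which members were chosen. Among barcodes with a high sum, less SLC2A1 calls for more of the other rule genes. The reverse order is thus partly built into the choice of members, and a difference between classes in these genes was not tested. NDRG1 had 130 CPM in RG-like member cells against 10.0 in other RG-like cells, but 99.5 against 53.4 within cluster 10 and 45.0 against 28.3 within cluster 5. ADARB2 had 858 CPM against 144 in the RG-like class, 1670 against 918 within cluster 10 and 660 against 494 within cluster 5. NEAT1, a nuclear long noncoding RNA, had 8483 CPM in the member nuclei of cluster 4 against 3937 in its other nuclei, and 1418 against 211 in cluster 0. In cells NEAT1 was higher in members in 8 of 17 wells (median log2 fold -0.30), and its levels in members and other cells were 611 against 158 CPM in the RG-like cluster 0, 121 against 90.6 in cluster 10 and 213 against 243 in cluster 5.

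Many of the leading genes were graded along the score, although not all. HK2 went from 544 CPM in the 100 highest cells through 274 in the next 200, 191 in the next 300 and 120 in the next 600 to 37.5 in all others. The corresponding levels in nuclei were 914, 459, 254, 143 and 36.8 CPM. VEGFA went from 906 through 581, 456 and 332 to 118 CPM in cells. MKI67 went the other way, from 21.0 CPM in the 100 highest cells to 234 in the lowest group. So did the median mitochondrial share, from 0.565% through 0.976%, 1.21% and 1.59% to 2.51%. In nuclei MKI67 was not ordered by rank, with 20.6, 128, 63.0, 144 and 159 CPM. ADARB2 in cells was highest in the second group, with 1046, 1116, 942, 719 and 177 CPM. NEAT1 had no order in cells, with 599, 353, 398, 316 and 358 CPM, and in nuclei it had 3887, 4851, 2183, 1405 and 707.

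The members were unevenly distributed over first-round wells, where fixed samples of a condition not known here were first barcoded. In cells 24 of 48 wells held members and 24 wells with 1737 cells held none, among them well D12 with 0 of 342 cells, which allows a share of up to 0.877% by a limit of 3 counts and of up to 1.07% by the exact binomial interval. Well D7 held 62 members, 20.7% of all (16.2% to 25.7%) and 12.2% of its 508 cells. Well D11 held 42, and the 5 largest contributions together made up 170 of the 300. The highest share was in well B3, 20 of 84 cells or 23.8% (15.2% to 34.3%).

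In nuclei all 12 wells held members, at shares from 0.781% to 8.71% with a median of 3.70%. Well A3 held the most, 48 of 551 nuclei or 16.0% of members (12.0% to 20.6%). Of the 15 leading genes of cells 8 were higher in members in all 17 wells with at least 5 members, and the lowest number was 14 wells. Of the 15 leading genes of nuclei 5 were higher in all 12 wells, and the lowest number was 6, for HSPA1B. For HK2, VEGFA, GPI and FAM162A members exceeded the reference in all 17 wells of cells with at least 5 members and in all 12 wells of nuclei. The members and the 15 leading genes of each library were chosen in these same barcodes. Such counts of wells therefore describe the spread and test nothing. Conditions, days and organoids may differ between wells and cannot be told apart here. Sub-libraries of cells held between 13 and 52 members, and those of nuclei 150 each.

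**Figure D5:**
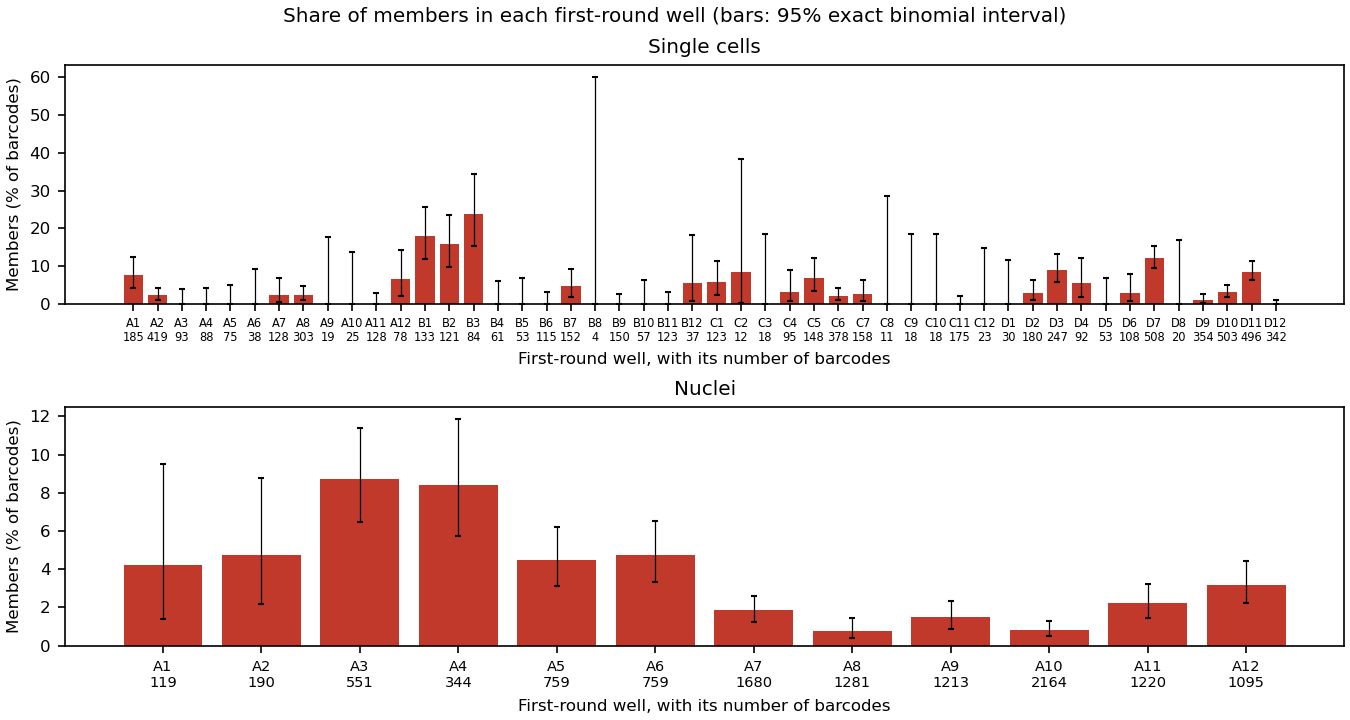
Members as a percentage of the passing barcodes of each first-round well, with 95% exact binomial intervals; the label of each well gives its number of barcodes. In cells the share runs from 0 to 23.8% (well B3), and in nuclei from 0.781% to 8.71% (well A3).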

How the data were processed

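The authors divided the reads of the 2 split-seq libraries among 8 sub-libraries of cells and 2 of nuclei, ran the pipeline of Parse Biosciences with GRCh38 as reference. What they deposited are raw transcript counts for every barcode, with no scaling and with doublets and free RNA still in place.

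From these counts, barcodes were filtered and scored as the report describes. Levels are summed counts over summed totals, scaled to 1e+06, with 95% exact Poisson intervals, and shares carry 95% exact binomial (Clopper-Pearson) intervals. Both cover counting error only. Genes tested were present in at least 1% of passing barcodes with at least 20 counts. The text names the 9 genes of the rule, the 15 genes with the highest fold among those in at least 10% of members, the 8 lowest among those in at least 20% of the reference, stress genes the study examined and members of fixed lists; KCTD16, NEAT1, FGF11, IGFBP2 and GDF15 were added after their values were seen. The members and lists were chosen with earlier results of these data known. Where several cell types passed the naming rule, a cluster took the one whose share of markers passing led by at least 0.2, a step added once the data were seen, and otherwise stayed unnamed.

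Clusters used 2000 variable genes, 30 principal components, 15 neighbours and Leiden resolution 1 (scanpy 1.11.5, scikit-learn 1.9.0, seed 0). Figures used matplotlib 3.10.9, intervals scipy 1.17.1, and tables pandas 2.3.3 with numpy 2.4.6 under Python 3.11.15. Gene positions came from GENCODE on GRCh38. Folds, Poisson intervals, thinning and the choice of members were tried on simulated counts that held no cell types or wells. Clustering, cluster names and the weighting of the reference were not tried in this way. Groups of organoids were not compared, since no barcode could be assigned to one.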

Additional observations from a re-analysis of the deposited data

Results flagged for a closer look

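The choroid plexus markers went in opposite directions in the libraries. Their median log2 fold was -1.83 in member cells and 1.31 in member nuclei. Single genes beyond 2-fold both ways were TTR at -1.83 in cells and 1.30 in nuclei, CLIC6, a chloride channel protein, at -2.02 and 1.33, OTX2, a factor of choroid plexus identity, at -1.73 and 1.57, RSPO2, a signal of the cortical hem, at -2.23 and 1.47, and LMX1A, a hem transcription factor, at -2.31 and 1.02. The HIF factor EPAS1 went from -1.16 in cells to 1.5 in nuclei. With the reference weighted to the members' wells, RSPO2 stood at -1.43 and 0.79 and LMX1A at -1.88 and 0.68, so that both were under 2-fold in nuclei, and EPAS1 stood at -0.86 and 1.1, under 2-fold in cells. Within wells EPAS1 was higher in members in 5 of 17 wells of cells and 7 of 12 of nuclei. These differences between libraries were not tested, since each library was 1 sample and the libraries differ in material, depth and days. Clusters led by RSPO2 and PRTG were cluster 4 of cells, unnamed, with 10 members (2.13% of its cells), and cluster 4 of nuclei, choroid plexus-like, with 71 (9.71%). Clusters led by genes of cilia, both choroid plexus-like, were cluster 12 of cells, with 0 members, and cluster 14 of nuclei, with 10 (2.94%). These values move with the genes above, and their part in them was not tested.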

How the results depend on the processing

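Of 214 values recomputed under alternatives, 152 stayed within the limits set (1.5 times for counts, the SD between sub-libraries for medians, the binomial interval for shares), and 62 moved. Among the 214 the medians of the glycolysis and hypoxia response lists, the only values with a sign, were above 0 under every alternative. No paired analysis was possible because each group is 1 sample and no result comes from a test. With the 100 highest scores as members, genes at least 2-fold higher were 2237 in cells, 1978 in nuclei and 429 in both, and genes lower 5934 and 3783, with medians of 1.53 (glycolysis) and 1.92 (hypoxia response) in cells and 2.18 (glycolysis) in nuclei. The excitatory neuron-like share of cells was then 18.0%, the RG-like share of nuclei 38.0% and the largest well of cells 33.0%. With 600 members the counts were 635 higher in cells and 117 in both, with 1625 and 940 lower, and medians in nuclei of 1.72 and 1.76. With genes in at least 5% of barcodes, 358, 479 and 98 were higher, 1116 and 741 lower, and the medians in nuclei 1.74 and 1.79. With no gene filter 4100, 4779 and 751 were higher, with 1.91 and 2.18. With the reference weighted to clusters, 453 were higher in nuclei and 65 in both, with 0.90 and 1.05 in cells and 1.37 and 1.47 in nuclei, and weighted to wells 1.64 and 1.86 in nuclei. With other depth limits the glycolysis median in cells was 1.5, those in nuclei 1.69 and 1.72, the RG-like share 22.7% of cells and 13.0% of nuclei, the excitatory neuron-like share of cells 14.3% and the largest well 29.0%. In nuclei glycolysis and hypoxia response were 1.74 and 1.94 without PGK1 in the score, 1.85 and 1.66 after thinning and 1.69 and 1.78 without the well with most members, while glycolysis was 1.86 with 3 and 1.84 with 5 genes required and 1.83 as a mean over barcodes. The SD between only 2 sub-libraries of nuclei was 0.0211 (glycolysis), so small shifts counted as moved. Leiden resolution 0.5 gave excitatory neuron-like shares of 9.67% of cells and 2.67% of nuclei and 23.0% RG-like nuclei, resolution 2 gave 37.3% and 4.00% with 3.67% RG-like cells and 22.3% RG-like nuclei, and clustering with all list genes kept gave 13.7% and 3.00%. Depth limits single genes: a level of members rests on 3210923 transcripts in cells and 1383260 in nuclei.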
